A study of Mus musculus with 9 samples.

Results

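Complement is a cascade of secreted proteins that tags cells and debris and recruits phagocytes. C1q, built from the chains encoded by C1qa, C1qb and C1qc, starts the classical pathway by binding antibody or exposed surfaces, after which C4 and C3 are cleaved, and factor B amplifies the cleavage of C3 in the alternative pathway. The small fragments released from C3 and C5 act on receptors of myeloid cells, and tissue macrophages are a main local source of C1q. The 9 genes described here are the C1q chains C1qa, C1qb and C1qc, the components C3 and C4b, the protease gene Cfb, the inhibitor gene Serping1 and the receptor genes C3ar1 and C5ar1. They were chosen by symbol, and all 9 were found among the 49568 rows of the deposited count table. The expression filter of edgeR, the software used for the tests, kept 8 of them among the 14986 genes tested, all but Cfb.

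The libraries hold total RNA of whole gastrocnemius, the large calf muscle, from C57Bl6J mice about 8 weeks old. RL is the irradiated limb, given 3 sessions of 8.2 Gy at 4 weeks of age and sampled 3 weeks later by the labels, whose times do not add up exactly. CL is the opposite, unirradiated limb of the same 3 mice, and CTL is a limb of 3 other mice that received 0 Gy. CL and RL libraries with the same number come from 1 mouse. The groups differ in no labelled allele, and in bulk muscle fewer cells of a type and less RNA per cell cannot be told apart.

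Totals ran from 30.8 to 44.6 M counts, and mitochondrially encoded genes took 31.1% to 51.8% of them. The myofibre genes that define the tissue were abundant, with a summed level in CPM (counts scaled to the library total, adjusted by edgeR's trimmed mean of M values) of 218000 to 240000 in CTL, 171000 to 217000 in CL and 163000 to 193000 in RL. All RL libraries thus lay below all CTL libraries. The median log2 fold change of the 8 myofibre markers in RL over CTL was -0.39. In edgeR 5 had an unadjusted p under 0.05 (12% of all tested genes) and 0 were called (0.514% of all genes). DESeq2 called 2, both lower (2.05% of all genes called). The part of this shift in the complement levels was not tested. Liver plasma protein genes, which mark the organ that makes most circulating complement, summed to at most 0.781 CPM in any library. The library CL 1 stood apart. Its 8 lymphocyte markers summed to 19.7 CPM against 0.0892 to 0.558 in the other libraries, with the T cell gene Cd3e at 0 counts in 6 of those 8. Its neutrophil markers summed to 5.43 CPM against 0.145 to 1.92 elsewhere and its adipocyte markers to 77.6 CPM against 11.4 to 43.0. The results that rest on CL 1 are therefore given with and without it, except for the genes most correlated with each member.

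**Figure D1:**
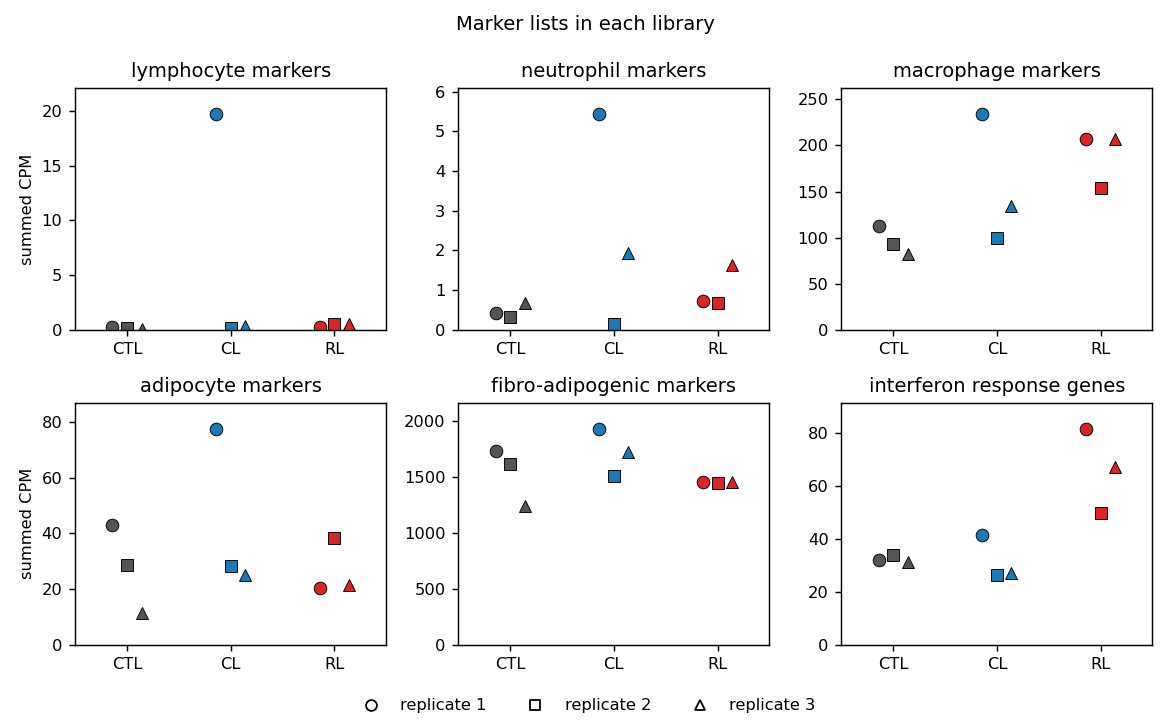
Summed CPM of 6 marker lists in each of the 9 libraries, with 1 point per library and replicate number by shape. CL 1 lies far above the rest for lymphocyte markers at 19.7 CPM, and the 3 RL libraries lie above the 3 CTL libraries for macrophage markers and interferon response genes.

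The comparison of RL with CTL asks what differed in an irradiated muscle from that of unirradiated mice. Transcripts of all 3 C1q chains and of the C3a receptor gene stood at 1.89 to 2.30 times the CTL level in RL, and each RL library lay above each CTL library for these 4 genes. The fold was 1.22 for C3, 1.70 for C4b, 1.49 for C5ar1 and 1.01 for Serping1, all with overlapping libraries. None of the 8 members tested passed edgeR's quasi-likelihood test at an adjusted p of 0.05 in the fit of all 9 libraries, in which 0.514% of all tested genes passed. The same 4 genes, C1qa, C1qb, C1qc and C3ar1, had an unadjusted p under 0.05 there, as had 12% of all tested genes. In DESeq2 4 of 8 members had one, against 9.96% of genes, and in edgeR without CL 1 it was 7 of 8, against 15.9%. All 4 passed when CL 1, a library of neither group, was left out of the shared estimate of spread (3.96% of all tested genes passed). They also passed in DESeq2 (2.05% passed). Without CL 2 only C1qa and C1qb passed, at edgeR adjusted p of 0.0298 and 0.0321. None of the 4 passed when CL 3, or any single CTL or RL library, was left out. In limma-voom the lowest adjusted p of a member was 0.105, for C1qa.

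C1qa, which encodes the A chain of C1q, had 8.46, 6.87 and 5.89 CPM in the CTL libraries, 14.8, 7.28 and 9.84 in CL and 18.3, 11.2 and 16.1 in RL. The lowest RL library was above the highest CTL library, while CL spanned both groups. The mean was 15.2 ± 3.65 CPM in RL (SD, n = 3) against 7.07 ± 1.30 in CTL. This gave a log2 fold change of 1.10 ± 0.25 (SE), with an adjusted p of 0.0764 in edgeR, 0.00608 without CL 1 and 0.00311 in DESeq2. In the authors' deposited table the log2 fold change is 0.70 and the adjusted p 0.0124. That fold change is smaller than the 1.11 of DESeq2 run here, and the reason was not tested. C1qb and C1qc pass in the authors' table too, with adjusted p of 0.0124 and 0.0275.

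C1qb, the gene of the B chain, had 5.92, 5.78 and 4.16 CPM in CTL, compared with 12.3, 4.57 and 7.17 in CL and 14.7, 9.01 and 12.8 in RL. Again every RL library exceeded every CTL library, and only CL 1 among the CL libraries reached the RL range. The log2 fold change of RL over CTL was 1.20 ± 0.30, the highest of the members tested, with an edgeR adjusted p of 0.108 over all libraries and 0.00645 without CL 1.

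C1qc, the gene of the C chain, had 7.88, 7.33 and 5.35 CPM in CTL, against 11.4, 7.67 and 9.12 in CL and 13.6, 9.30 and 16.1 in RL. The RL and CTL libraries did not overlap, and CL 2 lay within the CTL range. RL exceeded CTL by a log2 fold change of 0.92 ± 0.21, with an edgeR adjusted p of 0.0859 over all libraries and 0.0166 without CL 1.

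The 3 chains are assembled into 1 protein, and their genes lie together on the minus strand of mouse chromosome 4 within 18.7 kb (GRCm38, 136880129 to 136898803, GENCODE vM21). Their levels were nearly proportional. C1qb stood at 62.8 to 84.0 CPM per 100 CPM of C1qa over the 9 libraries and C1qc at 73.9 to 107. Pearson's r between the log2 CPM of any 2 chains was 0.934 to 0.984 over the 9 libraries, which share their depth and composition between genes, and 0.940 to 0.983 without CL 1.

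The RefSeq promoter windows of C1qb and C1qc (GRCm38.p6) are shown because these neighbouring genes moved together. Each covers 300 bases on the minus strand, C1qb at chr4:136886151-136886450 and C1qc at chr4:136892865-136893164, and capitals mark the 6 letters GAGGAA, a core of sites for the myeloid factor PU.1, or their reverse complement.
C1qb: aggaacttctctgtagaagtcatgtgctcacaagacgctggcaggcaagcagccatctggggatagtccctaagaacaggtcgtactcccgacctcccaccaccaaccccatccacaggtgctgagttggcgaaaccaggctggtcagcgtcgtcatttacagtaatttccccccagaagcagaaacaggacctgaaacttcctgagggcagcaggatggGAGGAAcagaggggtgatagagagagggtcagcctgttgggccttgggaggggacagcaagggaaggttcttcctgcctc
C1qc: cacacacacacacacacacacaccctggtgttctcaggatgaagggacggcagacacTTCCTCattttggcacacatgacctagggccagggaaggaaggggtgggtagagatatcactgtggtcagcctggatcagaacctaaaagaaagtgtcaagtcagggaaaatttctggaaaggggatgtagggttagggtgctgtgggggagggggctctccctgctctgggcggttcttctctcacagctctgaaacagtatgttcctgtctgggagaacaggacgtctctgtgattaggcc
The match begins at position -30 from the start site in C1qb and at -193, on the opposite strand, in C1qc. The motif was chosen after the files had been seen, and 28.3% of all 32851 promoter windows hold it on one strand or the other, so the matches are a description only.

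The summed level of the C1q chains moved with that of macrophage markers. It was 22.3, 20 and 15.4 CPM in CTL, compared with 38.5, 19.5 and 26.1 in CL and 46.6, 29.5 and 45.0 in RL. The 16 macrophage markers summed to 82.5 to 113 CPM in CTL, against 99.2 to 234 in CL and 154 to 207 in RL. Per 100 CPM of macrophage markers there were 19.7, 21.5 and 18.7 CPM of C1q in CTL, 16.4, 19.7 and 19.5 in CL and 22.5, 19.2 and 21.8 in RL. These ratios overlapped between CTL and RL, and the lowest was that of CL 1.

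**Figure D2:**
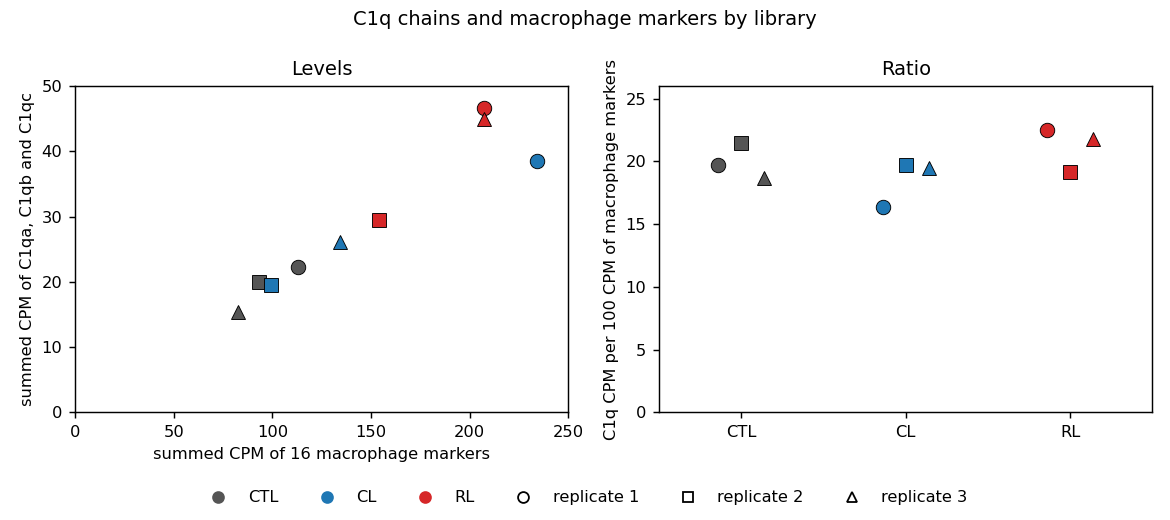
Left, summed CPM of C1qa, C1qb and C1qc against the summed CPM of 16 macrophage markers in each library; right, C1q CPM per 100 CPM of the markers by group, with replicate number by shape. The levels span 15.4 to 46.6 CPM on the vertical axis while the ratio spans 16.4 to 22.5, with CTL and RL overlapping.

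Of the 16 macrophage markers, all tested, edgeR called 1 higher in RL than in CTL (0.514% of all tested genes were called). An unadjusted p under 0.05 was seen for 14 (12% of all genes). Without CL 1, 8 were called (3.96% of all genes). The median log2 fold change of the 16 markers was 1.24, against 0.84 for the 8 complement members and -0.01 for all genes tested. The called marker was Ccr2, a chemokine receptor of monocytes, with 2.70 to 3.54 CPM in CTL and 10.7 to 15.2 in RL (log2 fold change 1.95 ± 0.24, edgeR adjusted p 0.00937). Adgre1, which encodes the macrophage protein F4/80, had a log2 fold change of 1.22 ± 0.29 (edgeR adjusted p 0.0913, 0.00376 without CL 1), close to that of C1qa. Cd163, a scavenger receptor of resident macrophages, had 0.08 ± 0.12 (edgeR adjusted p 0.849). The part of macrophage content in the C1q levels was not tested.

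C3ar1 encodes the receptor for the C3 fragment C3a. It had 2.84, 1.83 and 1.58 CPM in CTL, compared with 4.48, 2.08 and 2.49 in CL and 5.30, 3.55 and 4.56 in RL. All RL libraries lay above all CTL libraries, and CL 1 alone of the CL libraries fell within the RL range. The log2 fold change of RL over CTL was 1.09 ± 0.30, with an edgeR adjusted p of 0.136 over all libraries, 0.0135 without CL 1 and 0.0329 in DESeq2. C3ar1 also passes in the authors' deposited table, with an adjusted p of 0.0398. Its log2 fold change there is 0.61, again smaller than the 1.11 of DESeq2 run here.

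The RefSeq promoter window of C3ar1 (GRCm38.p6, minus strand, chr6:122856108-122856407) is shown because interferon response genes were higher in the same RL libraries. Capitals mark a match to AAANNGAAA, part of the element bound by interferon regulatory factors.
C3ar1: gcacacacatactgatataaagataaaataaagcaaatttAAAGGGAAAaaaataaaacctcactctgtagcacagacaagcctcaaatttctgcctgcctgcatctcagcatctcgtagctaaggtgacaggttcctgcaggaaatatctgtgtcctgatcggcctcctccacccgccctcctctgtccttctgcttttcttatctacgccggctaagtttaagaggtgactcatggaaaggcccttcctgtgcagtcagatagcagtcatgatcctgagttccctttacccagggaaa
The match begins at position -210. Of the 32851 windows 10.6% hold this motif on one strand or the other, so the match is a description only. It was not found in the windows of C1qb, C1qc, C3 or C5ar1, the other members with a window. The 15 interferon response genes summed to 31.2 to 34.0 CPM in CTL, against 26.3 to 41.2 in CL and 49.7 to 81.4 in RL. In edgeR 6 of them were called higher in RL than in CTL (0.514% of all tested genes were called). Among these Irf7, an interferon-induced transcription factor, had a log2 fold change of 2.64 ± 0.46 (edgeR adjusted p 0.0333). Any link between these genes and the C3ar1 levels was not tested.

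C5ar1 encodes the receptor for the C5 fragment C5a. It was scarce, with 57, 39 and 56 counts in CTL, 133, 41 and 71 in CL and 96, 64 and 92 in RL, or 1.40 ± 0.29 CPM in CTL, against 1.87 ± 0.87 in CL and 2.09 ± 0.46 in RL. RL 2 lay within the CTL range, so the groups overlapped. Between RL and CTL the log2 fold change was 0.58 ± 0.33 (edgeR adjusted p 0.536, 0.286 without CL 1). C3ar1 and C5ar1 together stood at 3.08 to 3.93 CPM per 100 CPM of macrophage markers over all 9 libraries, with the groups overlapping.

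**Figure D3:**
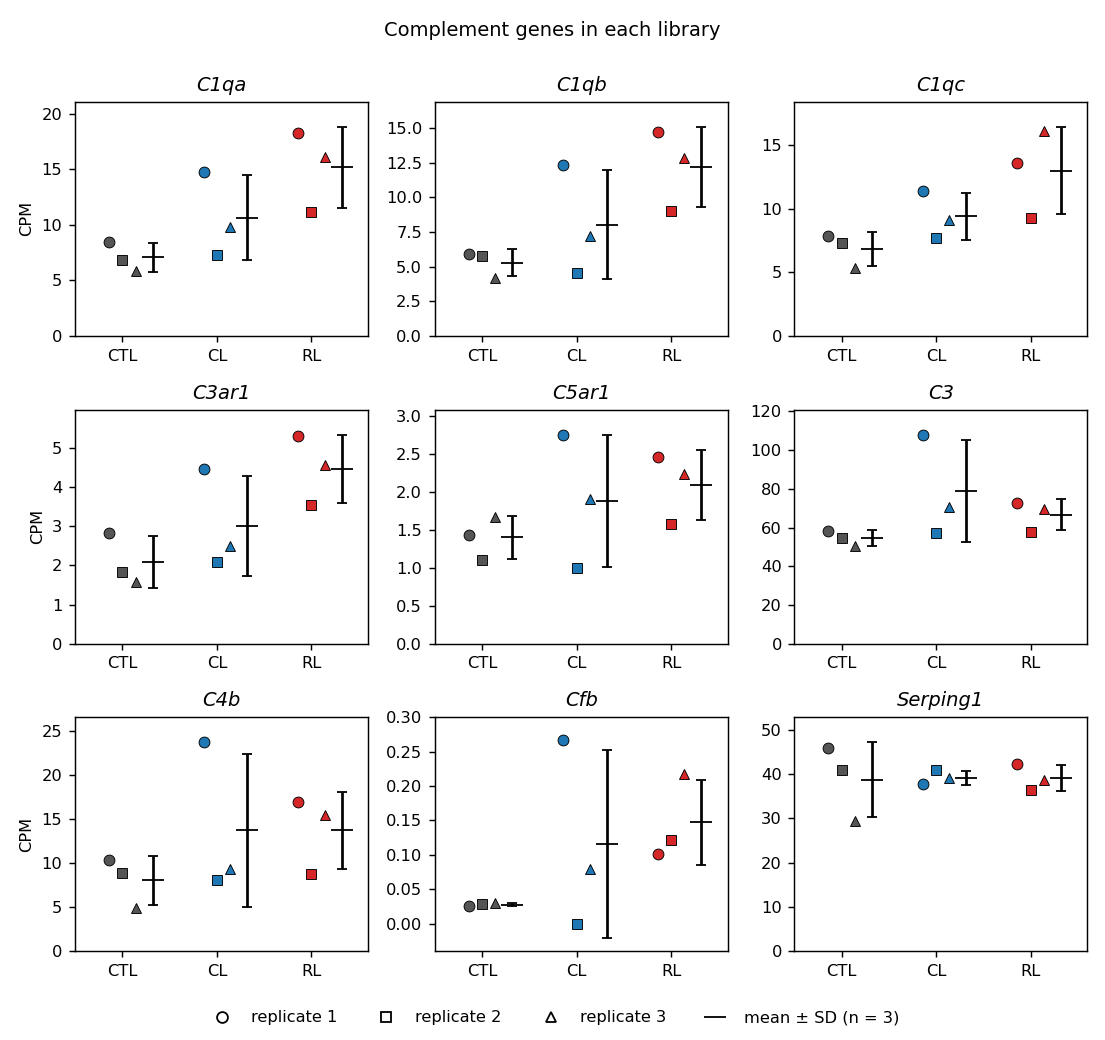
CPM of each complement gene in the 3 libraries of CTL, CL and RL, with replicate number by shape and the mean ± SD (n = 3) beside the points; vertical scales differ between genes. All RL points lie above all CTL points for C1qa, C1qb, C1qc, C3ar1 and Cfb, and CL 1 is the highest CL point for every gene except Serping1.

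C3 encodes the component on which all pathways of activation converge. It had 58.3, 54.8 and 50.4 CPM in CTL, compared with 108, 57.2 and 70.8 in CL and 72.9, 57.6 and 69.6 in RL. RL 2 lay just under the highest CTL library, and CL 1 was higher than every other library. For RL over CTL the log2 fold change was 0.29 ± 0.19 (edgeR adjusted p 0.613).

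C4b encodes the C4 protein, cleaved after C1 is activated. It had 10.3, 8.87 and 4.94 CPM in CTL, against 23.7, 8.10 and 9.30 in CL and 16.9, 8.77 and 15.5 in RL. RL 1 and RL 3 were above all CTL libraries and RL 2 was within their range. In edgeR RL stood 0.77 ± 0.40 above CTL on the log2 scale (adjusted p 0.484, 0.127 without CL 1). Of the 50-base stretches in C4b transcripts, 34.6% also occur in its neighbour copy C4a. C4a itself had 0 to 7 counts a library, so the split between the copies is uncertain but at most a few counts were given to C4a.

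Fibro-adipogenic cells of muscle are also known to express C3 and C4b, and the summed level of their markers overlapped between the groups. The 11 fibro-adipogenic markers summed to 1240 to 1730 CPM in CTL, compared with 1510 to 1930 in CL and 1450 to 1460 in RL. Per 100 CPM of these markers C4b stood at 0.597, 0.547 and 0.397 in CTL, 1.23, 0.535 and 0.542 in CL and 1.15, 0.603 and 1.06 in RL. The 3 RL ratios of C4b were above the 3 CTL ratios, narrowly for RL 2, and that of CL 1 was the highest. C3 stood at 3.38, 3.38 and 4.06 in CTL, 5.61, 3.78 and 4.13 in CL and 4.98, 3.96 and 4.76 in RL, where RL and CTL overlapped. The CPM of C4b itself, without this division, overlapped between RL and CTL. The markers that weigh most in the sum were Gsn, Col3a1 and Dcn. Their means were 545, 415 and 337 CPM in CTL against 413, 486 and 311 in RL. Of the 11 markers 6 had a positive log2 fold change in RL over CTL and 5 a negative one. Pdgfra, which defines these cells, had a log2 fold change of -0.25 ± 0.13 in RL over CTL (edgeR adjusted p 0.481) and the matrix gene Dcn -0.12 ± 0.17 (edgeR adjusted p 0.848). The 1 marker called over all libraries (0.514% of all tested genes were) was the matrix gene Lum, named after its values were seen. It had 0.71 ± 0.14 (edgeR adjusted p 0.0449), with 14.9 to 18.5 CPM in CTL and 25.9 to 30.6 in RL. Without CL 1, and also in DESeq2, 2 of the 11 were called higher (3.96% and 2.05% of all genes called), Lum and Ly6a. Ly6a had 0.72 ± 0.16 (edgeR adjusted p 0.0651, 0.0161 without CL 1), with 12.5 to 13.0 CPM in CTL and 16.9 to 25.5 in RL.

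Cfb encodes factor B, the protease of the alternative pathway, and was close to absent. It had 1 count in each CTL library, 13, 0 and 3 in CL and 4, 5 and 9 in RL. The 0 of CL 2 allows up to 3 counts, or 0.0725 CPM. Every RL library lay above every CTL library, but with 18 counts in RL against 3 in CTL the ratio of rates was 5.40 with an exact 95% interval of 1.58 to 28.6 that covers counting error only. The gene had too few counts for edgeR's filter, and without the filter its adjusted p was 0.224. By annotation 79.5% of its exon bases also belong to Gm20547, a gene that spans C2 and Cfb and was listed with 0 counts in every library, and how reads of the shared exons were counted is not known.

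Serping1 encodes C1 inhibitor, which blocks the proteases that C1q carries. It had 45.8, 41.0 and 29.4 CPM in CTL, against 37.7, 40.8 and 39.0 in CL and 42.2, 36.5 and 38.7 in RL. The groups overlapped fully and their means were 38.7 ± 8.41, 39.1 ± 1.55 and 39.1 ± 2.87 CPM. Between RL and CTL the log2 fold change was 0.01 ± 0.14 (edgeR adjusted p 0.984). Its sign turned when CTL 3, RL 1 or mouse 304 was left out, at -0.15, -0.04 and -0.04, so no direction is given.

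Each RL library was above each CTL library for 5 of the 9 members and for 4 of the 8 tested, where 10.5% of all tested genes showed this order. The 5 are C1qa, C1qb, C1qc, Cfb and C3ar1. Apart from Serping1, for which no direction is given, the fitted log2 fold changes of RL over CTL ran from 0.29 in C3 to 1.20 in C1qb.

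**Figure D4:**
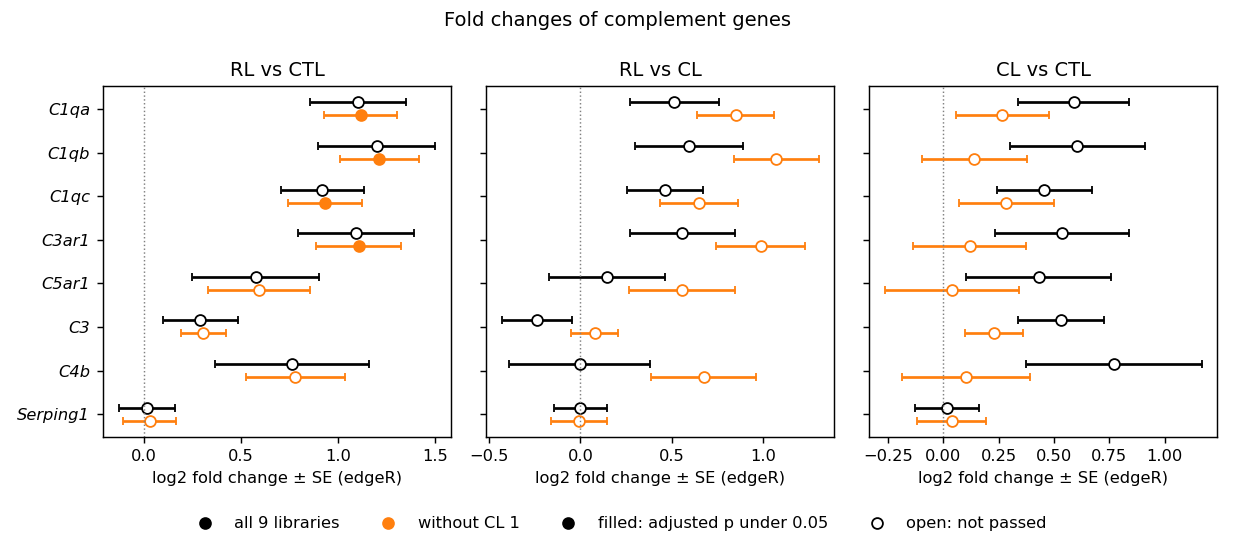
Log2 fold change ± SE (edgeR) of the 8 tested members in the comparisons of RL with CTL, RL with CL and CL with CTL, with all 9 libraries in black and without CL 1 in orange; filled points have an adjusted p under 0.05. The filled points are C1qa, C1qb, C1qc and C3ar1 in RL against CTL without CL 1, and in CL against CTL the orange points of C1qb, C3, C4b and C3ar1 lie nearer to 0 than the black ones.

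Per kilobase of exon, which allows genes to be compared, the level in CTL was highest for Serping1 at 16.7 ± 3.63 CPM per kb, followed by C3 at 10.6 ± 0.77 and C1qa at 6.80 ± 1.25. C1qb followed at 4.86 ± 0.90, C1qc at 3.55 ± 0.69 and C4b at 1.41 ± 0.49 CPM per kb. C5ar1 stood at 0.545 ± 0.111, C3ar1 at 0.484 ± 0.155 and Cfb last at 0.00979 CPM per kb. C1qa and C1qb, C1qb and C1qc, and C5ar1 and C3ar1 differed by less than the sum of their SDs. In RL the order was Serping1 at 16.8 ± 1.24, C1qa at 14.6 ± 3.49, C3 at 13.0 ± 1.57 and C1qb at 11.2 ± 2.66 CPM per kb, in which neighbours differed by less than the sum of their SDs. C1qc at 6.73 ± 1.78, C4b at 2.41 ± 0.76, C3ar1 at 1.04 ± 0.20, C5ar1 at 0.812 ± 0.180 and Cfb at 0.0522 ± 0.0220 CPM per kb followed. Here too C3ar1 and C5ar1 differed by less than the sum of their SDs. C1qa stood below C3 per kilobase in CTL by more than the sum of their SDs, and within it in RL. The places of C4b and Cfb in both orders are uncertain, since how shared reads were counted is not known. C4b shares 34.6% of its 50-base stretches with C4a, and Cfb shares 79.5% of its exon bases with Gm20547.

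The comparison of RL with CL sets the irradiated limb against the other limb of the same mice, and shares its RL libraries with the comparison above. The C1q chains and C3ar1 had higher means in RL, with libraries that overlapped, and C3 and C4b did not. In edgeR, 0 of the 8 members tested passed (0.0734% of all tested genes did), with 1, C1qc, at an unadjusted p under 0.05 (4.26% of genes). DESeq2 called 0 of 9 (0.199% of genes called), with 3 at an unadjusted p under 0.05 (3% of genes). Without CL 1 edgeR called 0 of 8 (0.897% of genes called), with 5 at an unadjusted p under 0.05 (8% of genes). The log2 fold change was 0.51 ± 0.24 for C1qa, 0.60 ± 0.29 for C1qb, 0.46 ± 0.21 for C1qc and 0.56 ± 0.29 for C3ar1, each with an edgeR adjusted p of 0.999. Without CL 1 the values were 0.85 for C1qa, 1.07 for C1qb, 0.65 for C1qc and 0.99 for C3ar1, with edgeR adjusted p of 0.0963, 0.0526, 0.286 and 0.0979.

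Within each mouse the irradiated limb had the higher level of these 4 genes. The log2 ratio of RL over CL for C1qa was 0.31 in mouse 304, 0.62 in mouse 305 and 0.71 in mouse 306. For C1qb it was 0.26, 0.98 and 0.84, and for C3ar1 0.24, 0.77 and 0.88, so that mouse 304, the source of CL 1, gave the smallest ratio each time. C1qc gave 0.25, 0.28 and 0.82. With the mouse as a block in edgeR the log2 fold change was 0.54 ± 0.11 for C1qa (adjusted p 0.0642) and 0.67 ± 0.14 for C1qb (adjusted p 0.0820). It was 0.45 ± 0.12 for C1qc (edgeR adjusted p 0.246) and 0.61 ± 0.16 for C3ar1 (edgeR adjusted p 0.211), and again 0 of 8 members passed, where 0.436% of all tested genes did.

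For C3 the within-mouse log2 ratio was -0.57, 0.01 and -0.02, and for C4b -0.49, 0.11 and 0.74. The mice did not share a direction for either gene. The edgeR log2 fold change of RL over CL was -0.24 ± 0.19 for C3 and -0.01 ± 0.39 for C4b, and 0.08 and 0.68 without CL 1 (adjusted p 1.00 and 0.541), so the sign of both depends on that library.

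The comparison of CL with CTL asks whether the unirradiated limb of irradiated mice differed from that of mice given 0 Gy. It shares libraries with both other comparisons. In edgeR, 0 of the 8 members passed, as did 0% of all tested genes, and C1qa and C3 had an unadjusted p under 0.05 (6.65% of genes did). DESeq2 called 0 of 8 (0.0983% of genes called), with 4 at an unadjusted p under 0.05 (5.56% of genes). Without CL 1 edgeR called 0 of 8, with 0 at an unadjusted p under 0.05 (3.6% of genes). The log2 fold change was 0.77 ± 0.40 for C4b, 0.53 ± 0.19 for C3 and 0.59 ± 0.25 for C1qa, with edgeR adjusted p of 0.778, 0.692 and 0.734. Without CL 1 these became 0.10, 0.23 and 0.27. The mean of C4b was 13.7 CPM over the 3 CL libraries and 8.70 over CL 2 and CL 3, against 8.04 in CTL. Lymphocyte, neutrophil and adipocyte markers were highest in the same library, and their part in its C3 and C4b levels was not tested.

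The wider complement system was read from a list of 46 further genes, of which 24 were tested. In RL against CTL edgeR called 1 higher and 0 lower (0.514% of all genes were called), and the median log2 fold change was 0.19. Of the 24, 15 had a positive log2 fold change and 9 a negative one, and 9 had an unadjusted p under 0.05 (12% of all genes). Among the lower genes C7 had -0.61 ± 0.27 and Vtn -0.31 ± 0.14 (edgeR adjusted p 0.383 and 0.3945). Without CL 1, and also in DESeq2, 4 were called higher and 0 lower (3.96% and 2.05% of all genes called). In these fits 10 of 24 and 6 of 27 had an unadjusted p under 0.05, against 15.9% and 9.96% of all genes. The gene called over all libraries was Itgam, the alpha chain of complement receptor 3 on myeloid cells. Itgam had 3.36, 2.23 and 2.32 CPM in CTL, compared with 5.68, 2.93 and 3.72 in CL and 8.55, 5.48 and 8.64 in RL. RL and CTL did not overlap, and the log2 fold change was 1.51 ± 0.26 (edgeR adjusted p 0.0333, 0.00220 without CL 1).

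The other 3 genes called without CL 1 were Cfp, Itgb2 and Itgax. Cfp, which encodes properdin, the stabiliser of the alternative pathway's convertase, had 2.68 to 3.04 CPM in CTL, against 2.97 to 6.64 in CL and 5.63 to 7.55 in RL, with a log2 fold change of RL over CTL of 1.21 ± 0.25 (edgeR adjusted p 0.0602, 0.00167 without CL 1). Itgb2, the beta chain shared by complement receptors 3 and 4, had 1.34 to 2.37 CPM in CTL and 3.72 to 7.16 in RL (log2 fold change 1.52 ± 0.43, edgeR adjusted p 0.153, 0.00824 without CL 1). Itgax, the alpha chain of complement receptor 4, had 0.338 to 0.627 CPM in CTL and 0.979 to 2.12 in RL (log2 fold change 1.65 ± 0.46, edgeR adjusted p 0.144, 0.0130 without CL 1). All 3 are expressed by myeloid cells, and for each of them all RL libraries lay above all CTL libraries.

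In RL against CL edgeR called 0 of the 24, with 4 at an unadjusted p under 0.05 (4.26% of all genes), and DESeq2 called 0 of 32, with 3 (3% of all genes). Itgam had a log2 fold change of 0.87 ± 0.25 (edgeR adjusted p 0.728), and with the mouse as a block it was the 1 gene of the list to pass, at 0.89 (adjusted p 0.0220). Without CL 1 edgeR called Itgam at 1.21 (adjusted p 0.0326) and Cfp at 1.01 (adjusted p 0.0174). Clu, which encodes the fluid-phase inhibitor clusterin, had -0.93 ± 0.33 over all libraries and -0.26 without CL 1. Cfd, the adipocyte-derived factor D that cleaves factor B, had -0.91 ± 0.38 and -0.25 without CL 1. Both genes were highest in CL 1, Clu at 41.8 CPM against 10.0 to 17.0 elsewhere and Cfd at 114 CPM against 18.3 to 45.0. In CL against CTL edgeR called 0 of the 24, with 5 at an unadjusted p under 0.05 (6.65% of all genes) and 1 without CL 1 (3.6% of all genes). DESeq2 called 0 of 27, with 3 at an unadjusted p under 0.05 (5.56% of all genes).

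Across the 9 libraries, CL 1 included, which share their depth and composition, the genes outside the complement lists whose log2 CPM was most like that of C1qa were Fcgr3, an antibody receptor of myeloid cells, at Pearson's r = 0.991, Cybb, a subunit of the phagocyte oxidase, at 0.987 and Lgals3bp at 0.984. For C1qb they were Myadm at 0.989, Cotl1 at 0.984 and Fcgr3 at 0.982, and for C3ar1 they were Cybb at 0.987, Pld4 at 0.986 and Anxa2 at 0.982. For C1qc they were Bcl6b at 0.976, Fyn at 0.974 and Gas7 at 0.973. C4b was most like Cnn2 at 0.981, Csf1r, the receptor for the macrophage growth factor CSF1, at 0.979 and Trp53i11 at 0.978. C3 was most like the adhesion gene Vcam1 at 0.978, Bgn at 0.977 and Abhd2 at 0.976. CL 1 was the highest library for C3 at 108 CPM, for Vcam1 at 9.05 against 3.10 to 5.24 elsewhere, and for Bgn at 71.0 against 19.6 to 43.2. All genes in these lists were picked for the highest r among the tested genes, so a high r follows from the choice and is no test. Their r without CL 1 was not computed. C5ar1 was most like Pik3r3 at 0.992, Mmp19 at 0.974 and Rin3 at 0.954. Serping1 was most like Fam171a1 at 0.942, Itm2c at 0.937 and Ppic at 0.931. Among the members themselves C3ar1 had r of 0.921 to 0.980 with the C1q chains (0.924 to 0.978 without CL 1), and C3 had 0.889 with C4b (0.840 without CL 1). Serping1 had -0.15 to 0.455 with the others, and up to 0.663, with C4b, without CL 1.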

How the data were processed

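Raw read counts for each gene in 9 libraries, deposited by the authors, were tested here. The authors' deposited comparison tables give each gene a log2 fold change with its p-value, raw and adjusted. Per the submitters' processing notes, DESeq2 and the GRCm38.p5 build were used. The kit is stranded, per the labels' protocols. Which aligner, counting rules and annotation were used is not given in the sources used here. Of 49568 rows, 26 had symbols turned into dates (no more than 0.0536% of any library) and 21023 were empty.

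Tests used edgeR (4.0.16, with limma 3.58.1 and R 4.3.3), as quasi-likelihood F tests on all 9 libraries with TMM scaling and no block. Its filter by group left 14986 genes, over which p-values were adjusted by Benjamini and Hochberg's method, with calls under 0.05. SE is the absolute log2 fold change over the square root of F. The procedure was tested on simulated data. Replicates within a group are separate mice, and no pair of them agreed within counting noise (smallest chi-square per degree of freedom 13.1). CL and RL pair by mouse, from the labels. The deviations of same-mouse libraries from their group means had r of 0.294, 0.429 and 0.0716. For libraries of different mice r was -0.359 to 0.0969, the highest for CL 1 with RL 3. The pair of mouse 306 was thus not set apart by these values.

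Alternatives were RLE scaling, no filter, DESeq2 1.42.0, limma-voom, the 2 compared groups alone, mitochondrial genes left out, each library left out, mouse 304 left out and the mouse as a block. Genes named are all members, of the wider list those called by edgeR over all libraries and the 4 with the smallest p in RL against CTL and in RL against CL, the 3 most correlated genes of each member with a mean log2 CPM (prior count 2) of at least 1, and a few markers, of which 1 is not reported here, nor is 1 promoter motif. Cr2, C7, Vtn, Cd3e, Lum, Ly6a, Gsn, Col3a1, Lyz2 and the motif GAGGAA were picked after values had been seen. Cfb is too sparse for correlated genes to be given. Members and lists were chosen with earlier results of these data known. RefSeq promoter windows (GRCm38.p6) were matched for 5 of the 9 members, and C1qa, C4b, Cfb and Serping1 had no entry. Intervals cover counting error only.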

Additional observations from a re-analysis of the deposited data

How the results depend on the processing

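The fold changes of the C1q chains and C3ar1 in RL over CTL kept their sign under all alternatives run, and their calls did not. Members called in RL against CTL numbered 0 over all libraries, 4 in DESeq2, 4 with the 2 groups alone, 5 without a filter (C4b added), 2 without mouse 304 and 0 to 4 with single libraries left out. Without a filter the log2 fold changes were nearly unchanged, but the estimate of spread was smaller. The SE in RL against CTL fell from 0.25 to 0.14 for C1qa and from 0.40 to 0.14 for C4b, whose libraries overlapped. Calls without a filter, in all comparisons, are therefore not equal in weight to the others. Wider complement genes called numbered 1, and 4 in DESeq2, 4 with 2 groups, 7 without a filter, 0 in limma-voom, 3 without mouse 304 and 0 to 4 with libraries left out. All genes called numbered 77, and 333, 505, 896, 44, 291 and 2 to 600 in the same order. Among the wider genes called there without a filter, C7 was lower in RL, at -0.61. In RL against CL, no filter called 2 members, 5 wider genes and 406 genes; the replicate block called 0 members, 1 wider gene and 64 genes against 11. DESeq2 called 38 genes there, 2 groups alone 4, the fit without mouse 304 20, and fits with libraries left out 1 to 136, with 0 to 2 wider genes. In CL against CTL, no filter called 4 members, 6 wider genes and 716 genes, DESeq2 16 genes, and fits with libraries left out 0 to 1. Without a filter Cr2, complement receptor 2, was among the called genes, with 320 counts in CL 1 and 0 to 7 elsewhere. Apart from fewer libraries, the cause was not tested.

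Signs turned only in comparisons in which the gene was called under no alternative. C4b in RL against CL was 0.0022 in DESeq2, 0.11 in limma-voom, 0.48 without mouse 304, 0.098 with the replicate block and -0.28 to 0.68 with libraries left out. C3 ranged from -0.43 to 0.078 and C5ar1 from -0.16 to 0.56 there. Serping1 in RL against CL was 9.2e-05 with RLE scaling, 0.0023 in DESeq2 and -0.058 to 0.049 with libraries left out; in RL against CTL it was -0.041 without mouse 304 and -0.15 to 0.15, and in CL against CTL -0.15 to 0.15. With 3 mice a group, and 0 to 13 counts of Cfb a library, small differences were not detectable at this depth.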
